A study of Mus musculus with 12 samples.

Results

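A set of 10 genes, of the 52015 genes with usable values, was followed in mouse collecting duct cells at normal and raised osmolality, with and without a deletion of Nfat5. It holds the caveolins Cav1 and Cav2, 3 genes often used as targets of the YAP coactivator (Ankrd1, Amotl2 and Axl), and 5 genes of the actin cytoskeleton that serum response factor (SRF) can drive (Tagln, Acta2, Myl9, Tpm1 and Vcl). The genes were taken by symbol, and the set was drawn up because Cav1 was strongly lower at 600 mosmol/kg. The ratios of 600 to 300 mosmol/kg are therefore a description and not a test. All 10 symbols were found, 7 genes had at least 0.5 FPKM (fragments counted on a gene, scaled to its length in kilobases and to library size) in every group, and 3 (Tagln, Acta2 and Myl9) stayed under 0.5 FPKM in every group.

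RNA was sequenced from mpkCCD, an immortalised mouse cell line of the cortical collecting duct. The control cells carried a scramble guide RNA with no target (Scr), and the Nfat5-KO cells were the 2 clones N1 and N3, made with CRISPR/Cas9. Both were kept for 5 days at 300 mosmol/kg or at 600 mosmol/kg, reached by adding 100 mM NaCl and 100 mM urea, in an otherwise shared serum-containing medium. This gave 12 libraries, 2 each for Scr_300 and Scr_600 and 4 each for Nfat5-KO_300 and Nfat5-KO_600, but the deposited table holds 1 FPKM value per gene and group. No spread between replicates could therefore be computed. Every difference below compares 1 value with another, has no replicate check and no p-value, and says nothing of how far the clones N1 and N3 differ. The study itself reports differential expression between these groups by DESeq2, and those results were not used here. Ratios were taken as log2 of (FPKM + 0.1) over (FPKM + 0.1), which understates the change of low genes, and "rose" or "fell" is used only for at least 2-fold.

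Caveolae are small flask-shaped pits of the plasma membrane. Caveolins form their coat together with cavins, while EHD and PACSIN proteins shape and hold the neck. YAP is a coactivator that enters the nucleus in spread or stretched cells and works through TEAD transcription factors. SRF is held in check through its MRTF cofactors, which bind free actin monomers, so genes of the actin cytoskeleton are its best known targets. NFAT5 is the transcription factor that collecting duct cells use to build up their tolerance of high salt.

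Nfat5 itself was at 5.61 FPKM in Scr_300, 7.93 in Scr_600, 3.47 in Nfat5-KO_300 and 6.88 in Nfat5-KO_600. A total over the gene does not read the edited site, so this level does not check the knockout. Of 8 collecting duct markers 7 had at least 0.5 FPKM in every group, but Aqp2, the water channel that defines principal cells, was listed at 0 in Scr_300 and was at most 0.245 FPKM elsewhere. The summed level of these 8 markers was 1651 and 1550 FPKM at 300 mosmol/kg (Scr and Nfat5-KO) and 1203 and 1011 FPKM at 600 mosmol/kg. Of 23 markers of fibroblasts, smooth muscle, endothelium and leukocytes 21 stayed under 0.5 FPKM in every group, with Cd68 and Smtn the exceptions.

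Cav1 and Cav2 are neighbours on mouse chromosome 6 and are transcribed in the same direction. In GRCm38 (GENCODE M21) Cav1, the main structural protein of caveolae outside muscle, lies at chr6:17306335-17341452, plus strand (ENSMUSG00000007655.16). Cav2, which joins CAV1 in mixed oligomers, lies at chr6:17281185-17289115, plus strand (ENSMUSG00000000058.6). The start of Cav2 is 25.15 kb before that of Cav1, and 17.22 kb separate the end of Cav2 from the start of Cav1. The 250 bases before each start are printed because these 2 genes fell with osmolality in Scr cells. They come from the RefSeq promoter table (GRCm38.p6, plus strand, 5′ to 3′), Cav1 at chr6:17306085-17306334 and Cav2 at chr6:17280935-17281184, and capitals mark a motif match.
Cav1: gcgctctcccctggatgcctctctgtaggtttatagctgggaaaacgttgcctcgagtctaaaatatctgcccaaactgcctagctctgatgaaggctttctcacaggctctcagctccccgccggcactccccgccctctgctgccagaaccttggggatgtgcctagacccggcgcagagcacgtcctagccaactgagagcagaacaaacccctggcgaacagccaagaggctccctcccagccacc
Cav2: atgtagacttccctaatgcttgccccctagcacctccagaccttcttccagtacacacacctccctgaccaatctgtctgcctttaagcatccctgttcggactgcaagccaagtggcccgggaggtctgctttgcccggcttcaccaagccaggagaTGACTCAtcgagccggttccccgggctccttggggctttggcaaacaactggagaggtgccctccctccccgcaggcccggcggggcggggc

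4 strings were searched on both strands of such windows. They were the TEAD motif GGAATG, the CArG box bound by SRF, a TonE-like string, and the AP-1 motif TGACTCA or TGAGTCA. The AP-1 motif was added after the sequences had been seen. The TonE-like string was GGAAANNNYNY (N any base, Y a C or T). It differs from the TonE consensus bound by NFAT5, and that consensus was not searched. The Cav1 window held none of these 4 strings, nor did that of a second annotated Cav1 start. In the Cav2 window the only match was the AP-1 motif 92 to 86 bases before the start. AP-1 matches occur in 4.46% of all 32851 promoter windows of this length. A match is a string of letters and not a binding site, and a window with none leaves the rest of the gene unread.

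Cav1 was at 30.8 FPKM in Scr_300, 5.08 in Scr_600, 46.0 in Nfat5-KO_300 and 11.1 in Nfat5-KO_600. Both groups at 600 mosmol/kg were below both groups at 300 mosmol/kg, and within each osmolality the Nfat5-KO value was the higher. Cav1 fell 5.96-fold with osmolality in Scr cells (log2 ratio -2.58) and 4.10-fold in Nfat5-KO cells (-2.04). Only 33 of the 12929 genes compared in Scr cells and 63 of the 12982 compared in Nfat5-KO cells had a lower ratio. In bulk RNA, fewer cells with Cav1 transcripts and fewer transcripts per cell cannot be told apart, and the summed collecting duct markers given above were also lower at 600 mosmol/kg. Their part in the Cav1 difference was not tested.

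Cav2 was at 40.5 FPKM in Scr_300, 16.5 in Scr_600, 43.3 in Nfat5-KO_300 and 26.9 in Nfat5-KO_600. The order of the 4 groups was the order seen for Cav1, with smaller steps. Cav2 fell 2.45-fold in Scr cells (log2 ratio -1.29, with 210 genes lower), and its log2 ratio in Nfat5-KO cells was -0.69, short of 2-fold. Per length, Cav1 stood at 0.760 times the Cav2 level in Scr_300 and at 0.308 times in Scr_600. The matching values in Nfat5-KO cells were 1.06 and 0.414, so the balance of the 2 transcripts moved towards Cav2 at 600 mosmol/kg in both genotypes.

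Between genotypes the caveolins were closer at 300 mosmol/kg than at 600 mosmol/kg. At 300 mosmol/kg the log2 ratios of Nfat5-KO to Scr were 0.58 for Cav1 and 0.10 for Cav2, both under 2-fold. At 600 mosmol/kg Cav1 was 2.17-fold higher in Nfat5-KO cells (1.12), and Cav2 had a log2 ratio of 0.70. The 2-fold call of Cav1 is narrow, since a pseudocount of 1 FPKM gives 0.997 on the log2 scale. The osmolality ratio was less negative in Nfat5-KO than in Scr cells by 0.54 for Cav1 and by 0.61 for Cav2, neither reaching 2-fold, and these differences were not tested.

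**Figure D1:**
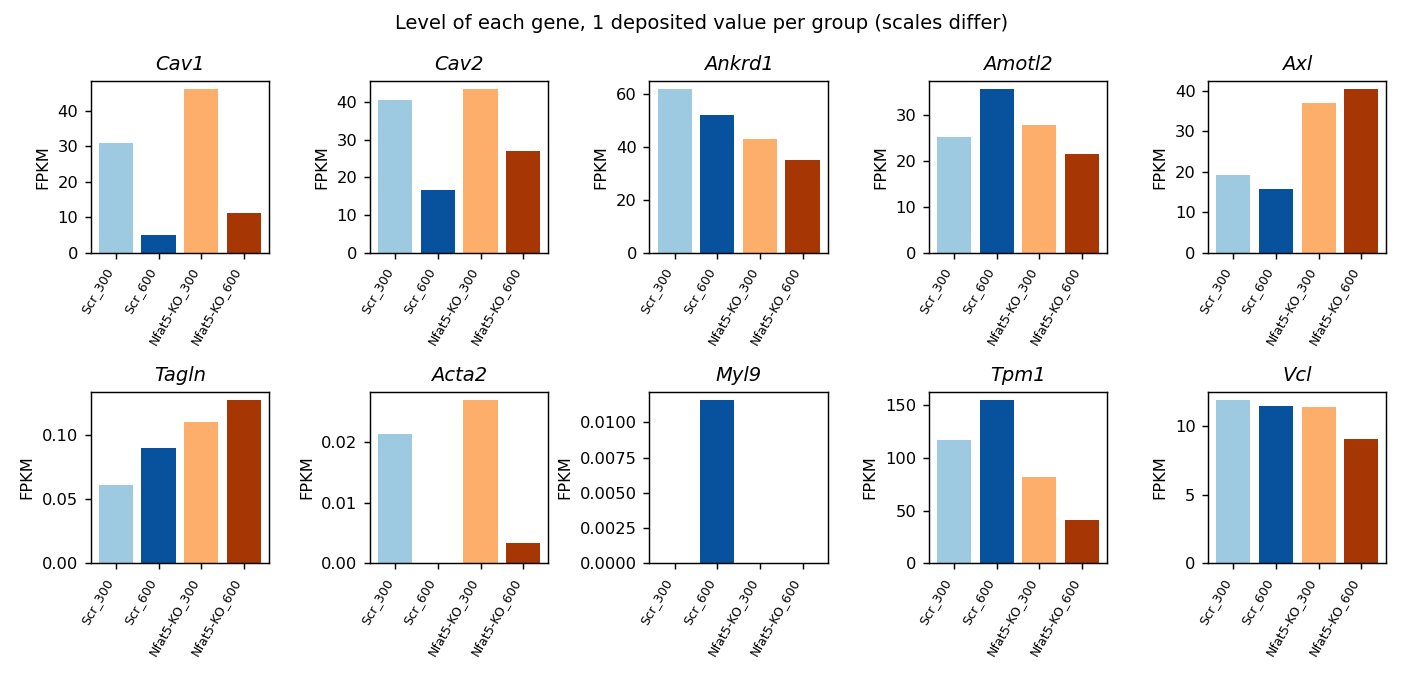
Level of each of the 10 genes in FPKM (vertical axis, from 0, with its own scale in each panel) in the 4 groups (horizontal axis); each bar is the 1 deposited value of a group and there is no error bar. Cav1 drops from 30.8 to 5.08 FPKM in Scr cells and from 46.0 to 11.1 in Nfat5-KO cells, Tpm1 has its lowest bar in Nfat5-KO_600 (40.9 FPKM), and Tagln, Acta2 and Myl9 have no bar above 0.128 FPKM.

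The other caveola genes had smaller ratios with osmolality than Cav1, the gene for whose fall the set was drawn up. Cavin1, the cavin needed for caveolae to form, was at 141.4 FPKM in Scr_300 and 116.4 in Scr_600, and at 143.4 in Nfat5-KO_300 and 96.7 in Nfat5-KO_600. Its log2 ratios with osmolality were -0.28 and -0.57. The FPKM of Cavin1 was 4.59 times that of Cav1 in Scr_300 and 22.9 times in Scr_600. In Nfat5-KO cells this ratio was 3.12 at 300 and 8.68 at 600 mosmol/kg.

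Of the 10 other caveola genes listed, 6 had at least 0.5 FPKM and none of these passed 2-fold with osmolality in Scr or in Nfat5-KO cells. Over all genes 4.81% rose and 2.86% fell in Scr cells, and 6.25% rose and 4.11% fell in Nfat5-KO cells. With shares this small, nothing is read from the count of 6 genes. Pacsin2, a membrane-bending protein of the neck, was at 40.0, 53.0, 41.9 and 41.1 FPKM in Scr_300, Scr_600, Nfat5-KO_300 and Nfat5-KO_600, and Pacsin3 was between 4.84 and 6.41 FPKM. Ehd1, a membrane-remodelling ATPase, ranged from 70.8 to 93.9 FPKM and Ehd4 from 39.5 to 66.5. Ehd2, the EHD protein that sits at the caveolar neck, was at 5.41 FPKM in Scr_300, 3.06 in Scr_600, 3.92 in Nfat5-KO_300 and 6.11 in Nfat5-KO_600. It was thus lower at 600 mosmol/kg in Scr cells (log2 ratio -0.80) and higher in Nfat5-KO cells (0.63). Cav3 and Cavin3 were listed at 0 in every group, Cavin2 was at most 0.195 FPKM and Cavin4 at most 0.0158 FPKM. A value at or near 0 in this table need not mean that a gene is silent: Ilk, the integrin-linked kinase that most cells use, was also at most 0.246 FPKM, and whether reads were lost at counting was not tested.

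With osmolality, the other expressed genes around the caveolins had smaller ratios than Cav1, chosen for its fall, and Cav2. Within 1 Mb of the Cav1 start 39 genes were found, of which only 4 besides Cav1 and Cav2 reached 0.5 FPKM, and none of these passed 2-fold in any comparison. Over all genes the share past 2-fold lay between 1.73% and 6.25% for each direction and comparison. With shares this small, nothing is read from the count of 4 genes. Tes, a LIM domain protein of focal adhesions with its start at -241 kb, had log2 ratios with osmolality of -0.30 in Scr and -0.42 in Nfat5-KO cells. Met, the receptor of hepatocyte growth factor 157.5 kb after the Cav1 start, was at 21.9 FPKM in Scr_300 and 33.0 in Scr_600 (0.59) and at 30.8 and 28.8 in Nfat5-KO cells (-0.10). Capza2, an actin capping subunit, had -0.24 and -0.17, and St7 had -0.10 and -0.17. Apart from Met in Scr cells, all of these values were below 0, as was the median of all genes (-0.04 in both genotypes). An antisense transcript, Gm15581, spans both caveolin genes but shares no exon base with them and was at most 0.00277 FPKM.

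**Figure D2:**
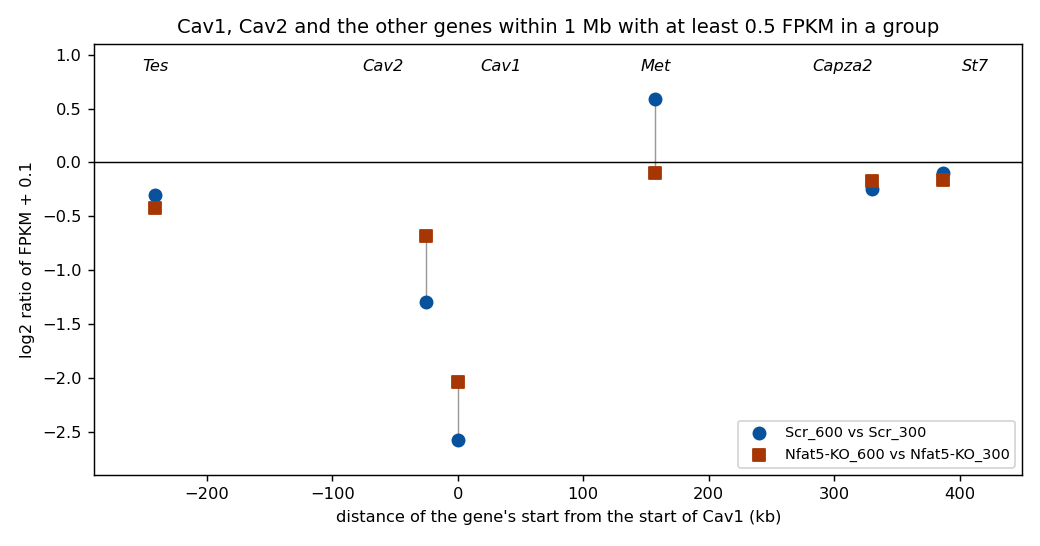
Log2 ratio of FPKM + 0.1 at 600 against 300 mosmol/kg (vertical axis) by the distance of each gene's start from the start of Cav1 in kb (horizontal axis), for the 6 genes within 1 Mb that had at least 0.5 FPKM; circles are Scr cells, squares Nfat5-KO cells, and a grey line joins the values of a gene. Cav1 (-2.58 and -2.04) and Cav2 (-1.29 and -0.69) sit below the other 4 genes, whose values lie between -0.42 and 0.59.

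By profile over the 4 groups, each centred on its own mean log2 level, Cav2 ranked 90 of 11251 genes in likeness to Cav1, with a root-mean-square log2 difference of 0.70. The genes nearest to Cav1 were Serpinb5 (0.20), Il24 (0.22), Clca3b (0.27), Gm22903 (0.29) and Pkp1 (0.29). Serpinb5, which encodes the epithelial serpin maspin, was at 1.97 FPKM in Scr_300, 0.392 in Scr_600, 4.14 in Nfat5-KO_300 and 0.805 in Nfat5-KO_600. Of the remaining expressed genes of the set, Axl ranked 2999 and Tpm1 ranked 10237. This likeness rests on 4 values a gene and is a description.

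The 3 genes taken as YAP targets did not move together. Ankrd1 encodes a muscle ankyrin repeat protein that binds titin and acts in the nucleus (chr19:36111961-36120099, minus strand, ENSMUSG00000024803.9). It was at 61.9 FPKM in Scr_300, 52.1 in Scr_600, 43.0 in Nfat5-KO_300 and 35.3 in Nfat5-KO_600. Both Nfat5-KO values were below both Scr values, with log2 ratios of -0.52 at 300 and -0.56 at 600 mosmol/kg. With osmolality its log2 ratios were -0.25 in Scr and -0.29 in Nfat5-KO cells. None of these reached 2-fold, and the sister genes Ankrd2 and Ankrd23 were at most 0.210 FPKM.

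Amotl2 encodes an angiomotin that binds YAP and holds it in the cytoplasm (chr9:102716672-102733418, plus strand, ENSMUSG00000032531.15). It was at 25.3 FPKM in Scr_300, 35.6 in Scr_600, 27.7 in Nfat5-KO_300 and 21.6 in Nfat5-KO_600. Its highest value was that of Scr_600 and its lowest that of Nfat5-KO_600. The log2 ratio with osmolality was 0.49 in Scr and -0.36 in Nfat5-KO cells, and that of Nfat5-KO to Scr was 0.13 at 300 and -0.72 at 600 mosmol/kg, all under 2-fold. The related Amot was between 2.57 and 2.95 FPKM and Amotl1 between 12.3 and 14.9 FPKM.

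Axl encodes a receptor tyrosine kinase of the TAM family (chr7:25757273-25788705, minus strand, ENSMUSG00000002602.16). It was at 19.2 FPKM in Scr_300, 15.6 in Scr_600, 36.8 in Nfat5-KO_300 and 40.3 in Nfat5-KO_600. Axl differed with genotype rather than with osmolality: both Nfat5-KO values were above both Scr values. It was 2.58-fold higher in Nfat5-KO than in Scr cells at 600 mosmol/kg (log2 ratio 1.36, with 239 of 13063 genes higher), and at 300 mosmol/kg the log2 ratio was 0.94, just short of 2-fold. With osmolality the log2 ratios were -0.30 in Scr and 0.13 in Nfat5-KO cells. Among the other TAM receptors Tyro3 was between 3.52 and 3.91 FPKM and Mertk was at most 0.0586 FPKM. Of the ligands, Gas6 was listed at 0 in 3 groups and at 0.0200 FPKM in Nfat5-KO_600, and Pros1 was between 0.110 and 0.326 FPKM.

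The RefSeq window before the start of Axl is printed for a gene of this group that differed between genotypes (GRCm38.p6, chr7:25788734-25788983, minus strand, read 5′ to 3′). In capitals it shows a match to the TonE-like string 245 to 235 bases before the start. A TEAD match follows 1 base further on, 233 to 228 bases before the start. The first of these, GGAAATTCTAC, does not meet the TonE consensus. The window of Vcl, an actin gene of the set, follows for comparison (chr14:20929148-20929397, plus strand), with a CArG box 227 to 218 bases and a TEAD match 143 to 138 bases before the start in capitals.
Axl: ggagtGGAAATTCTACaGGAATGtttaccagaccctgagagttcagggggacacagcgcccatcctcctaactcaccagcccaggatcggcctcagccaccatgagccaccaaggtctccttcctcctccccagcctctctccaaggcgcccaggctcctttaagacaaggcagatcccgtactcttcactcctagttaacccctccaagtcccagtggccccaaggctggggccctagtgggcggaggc
Vcl: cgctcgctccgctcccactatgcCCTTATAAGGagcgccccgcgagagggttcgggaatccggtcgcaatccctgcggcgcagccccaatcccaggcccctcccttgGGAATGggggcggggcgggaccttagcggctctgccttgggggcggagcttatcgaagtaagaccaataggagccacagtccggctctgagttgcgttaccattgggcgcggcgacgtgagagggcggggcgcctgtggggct

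Promoter windows were found for 9 of the 10 genes (none for Tagln), and no matches overlapped. TEAD matches were in 6 of the 9 (Ankrd1, Amotl2, Axl, Tpm1, Vcl and Acta2), against 12.6% of all windows. The windows are set by the RefSeq start, and those of 4 of the 6 overlap exons of their own gene in GENCODE, by all 250 bases for Ankrd1, 217 for Acta2, 193 for Tpm1 and 136 for Amotl2. The CArG box was in 2 (Myl9 and Vcl), against 1.47%, and the TonE-like string in 2 (Axl and Tpm1), against 15.9%. Neither the Axl match nor the Tpm1 match to that string meets the TonE consensus. These 9 genes were picked by name, partly as TEAD and SRF targets, so the shares describe the choice as much as the sequences.

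Tpm1 was the gene of the set whose osmolality ratio differed most between the genotypes. It encodes an alpha-tropomyosin, which winds along actin filaments and steers myosin and actin-binding proteins (chr9:67022590-67049406, minus strand, ENSMUSG00000032366.15). It was at 117.4 FPKM in Scr_300, 155.2 in Scr_600, 82.2 in Nfat5-KO_300 and 40.9 in Nfat5-KO_600. The Scr value was higher at 600 mosmol/kg (log2 ratio 0.40, under 2-fold), while in Nfat5-KO cells Tpm1 fell 2.01-fold (-1.01). That fall is at the 2-fold line and is no longer past it with a pseudocount of 1 FPKM (-0.99) or with each group rescaled to the same FPKM sum (-0.76). At 600 mosmol/kg the Nfat5-KO level of Tpm1 was 3.79-fold below that of Scr (-1.92, with 130 of 13063 genes lower), and at 300 mosmol/kg the log2 ratio was -0.51. The difference between the osmolality ratios, -1.41 on the log2 scale or 2.65-fold, was not tested.

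The other tropomyosins gave other patterns. Tpm2, or beta-tropomyosin, was at 3.54 FPKM in Scr_300, 1.42 in Scr_600, 1.94 in Nfat5-KO_300 and 2.86 in Nfat5-KO_600. It fell in Scr cells (log2 ratio -1.26, though -0.91 with a pseudocount of 1 FPKM) while its value in Nfat5-KO cells was higher at the raised osmolality (0.54), the reverse of Tpm1. Tpm3 was at 69.1 and 49.2 FPKM in Scr cells and at 87.7 and 47.2 in Nfat5-KO cells. Tpm4 was at 105.4 and 100.6 FPKM in Scr cells and at 86.3 and 68.3 in Nfat5-KO cells. Per length, Tpm1 stood at 1.54 times the Tpm4 level in Scr_600 and at 0.599 times in Nfat5-KO_600.

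Vcl encodes vinculin, which links integrins and cadherins to actin (chr14:20929398-21033676, plus strand, ENSMUSG00000021823.10). It was at 11.9 FPKM in Scr_300, 11.5 in Scr_600, 11.4 in Nfat5-KO_300 and 9.06 in Nfat5-KO_600. The first 3 of these values lie close together and that of Nfat5-KO_600 is the lowest. The log2 ratio with osmolality was -0.06 in Scr cells, or 0.07 after the groups were rescaled to the same sum, and -0.33 in Nfat5-KO cells. Vcl shares 2090 exon bases with Ap3m1 on the opposite strand, which was between 8.28 and 14.1 FPKM, and reads from there cannot be told apart without strand. Its relative Ctnna1, alpha-catenin of adherens junctions, was between 84.5 and 108.5 FPKM.

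**Figure D3:**
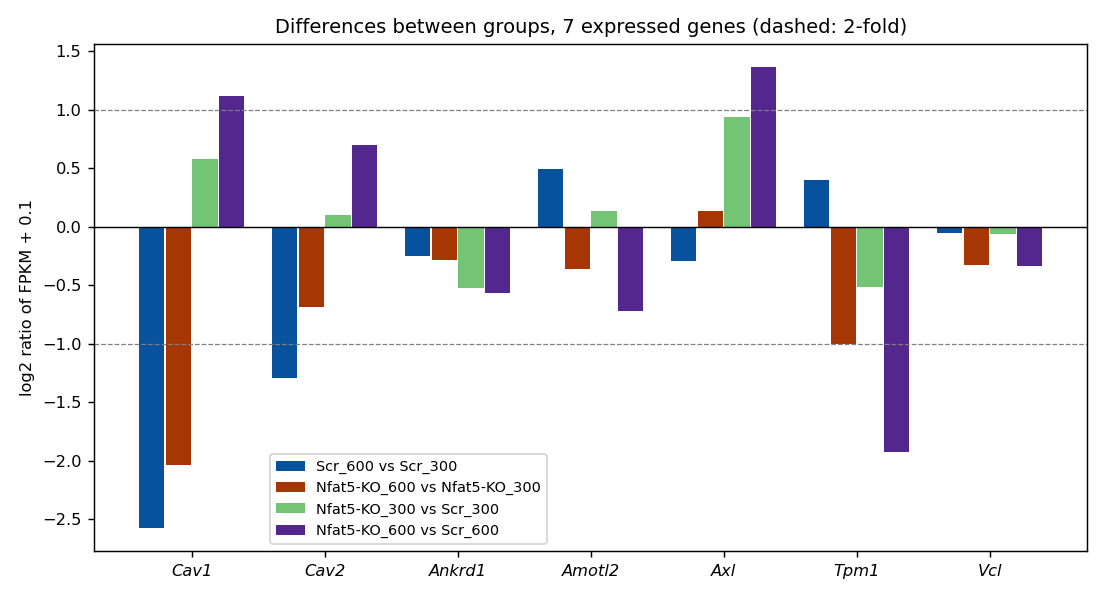
Log2 ratio of FPKM + 0.1 (vertical axis) for the 7 genes with at least 0.5 FPKM (horizontal axis) in 4 comparisons, each a bar in its own colour; dashed lines mark 2-fold, and no bar has an error since each group has 1 value. Cav1 is far below 0 with osmolality in both genotypes (-2.58 and -2.04), Axl is above 0 in both comparisons of genotypes (0.94 and 1.36), and Tpm1 has its longest bar for Nfat5-KO_600 against Scr_600 (-1.92).

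Tagln, Acta2 and Myl9, the smooth muscle genes of the set, were at or near 0 in the table, so only Tpm1 and Vcl of the 5 SRF targets could be compared. As for Cavin3 and Ilk, such values may understate a gene that is transcribed, and this was not tested. Tagln, or SM22, an actin-bundling protein (chr9:45929619-45936058, minus strand, ENSMUSG00000032085.5), was at 0.0612 FPKM in Scr_300, 0.0900 in Scr_600, 0.110 in Nfat5-KO_300 and 0.128 in Nfat5-KO_600. It shares 1241 exon bases with the antisense gene Gm48529 and 108 with Pcsk7, so even these reads cannot be given to it with certainty. Acta2, smooth muscle alpha-actin (chr19:34241090-34255590, minus strand, ENSMUSG00000035783.9), was at 0.0214 FPKM in Scr_300, listed at 0 in Scr_600, at 0.0270 in Nfat5-KO_300 and at 0.00342 in Nfat5-KO_600. Myl9, the regulatory myosin light chain of smooth muscle (chr2:156775420-156781658, plus strand, ENSMUSG00000067818.6), was at 0.0116 FPKM in Scr_600 and listed at 0 in the other 3 groups. No ratio is given for these 3 genes. The smooth muscle markers Myh11, Des, Cnn1, Lmod1 and Synpo2 were also at most 0.385 FPKM, while Smtn was between 23.0 and 44.9 FPKM.

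Several non-muscle relatives of these 3 genes were abundant. Actb, the cytoplasmic beta-actin, was at 499.5 and 481.2 FPKM in Scr cells (300 and 600 mosmol/kg) and at 697.0 and 467.8 in Nfat5-KO cells. Actg1, the cytoplasmic gamma-actin, was at 389.0 and 380.1 FPKM in Scr cells and at 370.4 and 217.1 in Nfat5-KO cells, a log2 ratio of -0.77 that did not reach 2-fold. The muscle actins Acta1, Actc1 and Actg2 were at most 0.247 FPKM. Myl12a, a non-muscle regulatory light chain, was between 26.0 and 39.9 FPKM, Myl12b between 2.58 and 3.29 and Myl6 between 91.1 and 124.6 FPKM. Tagln2, the transgelin of non-muscle cells, was at 114.7 and 72.3 FPKM in Scr cells and at 86.8 and 49.0 in Nfat5-KO cells, with log2 ratios of -0.67 and -0.82. Cnn2 was between 31.7 and 50.0 FPKM and Cnn3 between 57.4 and 78.3, while Tagln3 and Cnn1 were at most 0.258 FPKM.

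In level, Tpm1 was the highest of the 10 genes in every group. Cav1 ranked 4 in Scr_300 and 2 in Nfat5-KO_300, but 7 in Scr_600 and 6 in Nfat5-KO_600, and the steps in this order have no spread to be judged against. In Nfat5-KO_600 Tpm1 (40.9 FPKM) and Axl (40.3 FPKM) were almost level.

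Counted over the 7 expressed genes, 0 rose and 2 fell at least 2-fold with osmolality in Scr cells (Cav1 and Cav2), where 4.81% of the 12929 genes compared rose and 2.86% fell. In Nfat5-KO cells 0 rose and 2 fell (Cav1 and Tpm1), where 6.25% of 12982 genes rose and 4.11% fell. Since the set was chosen from these contrasts, nothing is read from those counts. At 300 mosmol/kg none of the 7 differed 2-fold between Nfat5-KO and Scr cells, where 1.73% of 12704 genes were higher and 2.44% lower. At 600 mosmol/kg 2 were higher in Nfat5-KO cells (Cav1 and Axl) and 1 lower (Tpm1), where 3.76% of 13063 genes were higher and 3.68% lower. The set was chosen by the level of Cav1 at 600 mosmol/kg, which enters this comparison too, so nothing is read from this count either. The osmolality ratio differed at least 2-fold between genotypes for 1 gene (Tpm1, lower in Nfat5-KO cells), where 3.88% of 13414 genes had a higher and 3.16% a lower ratio in Nfat5-KO cells. The 4 comparisons share groups with one another, so these counts are not independent.

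The median log2 ratio of the 7 genes was -0.25 with osmolality in Scr and -0.36 in Nfat5-KO cells, beside -0.04 and -0.04 over all genes. Between genotypes it was 0.10 at 300 and -0.34 at 600 mosmol/kg, beside -0.00 and -0.02 over all genes. The deposited FPKM sum to between 212247 and 253756 per group, lowest in Nfat5-KO_600. Rescaling each group to the same sum lifts the median of all genes by 0.13 with osmolality in Scr cells, by 0.24 in Nfat5-KO cells and by 0.13 for Nfat5-KO_600 against Scr_600. It turns the 812 higher and 534 lower genes of Nfat5-KO cells into 1318 and 274, the 491 and 481 of Nfat5-KO_600 against Scr_600 into 654 and 407, and the 520 and 424 of the difference between osmolality ratios into 670 and 340.

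**Figure D4:**
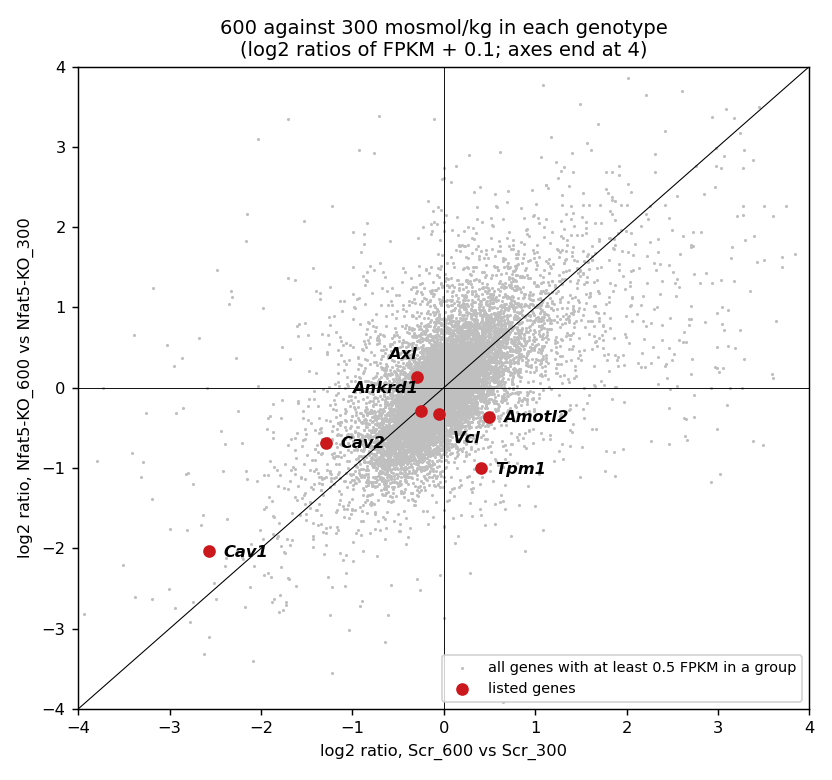
Log2 ratio of FPKM + 0.1 at 600 against 300 mosmol/kg in Scr cells (horizontal axis) and in Nfat5-KO cells (vertical axis); grey points are the 13414 genes that reached 0.5 FPKM somewhere, of which 16 lie beyond the axes, red points are the 7 expressed genes of the set, and the diagonal marks equal ratios. Cav1 (-2.58, -2.04) lies far down near the diagonal, and Tpm1 (0.40, -1.01) and Amotl2 (0.49, -0.36) lie below it with opposite signs.

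Wider lists of the same pathways were read in the same way; they were drawn up with results of these data known. Of 23 YAP-TEAD targets 20 could be compared, the 3 above included. The value at 600 mosmol/kg was the higher for 15 of the 20 in Scr cells, and the median of their log2 ratios was 0.49 (17 and 0.62 after rescaling). Over all genes 5871 of 12929 were higher in Scr cells, with a median of -0.04 (0.09 after rescaling). In Nfat5-KO cells 9 were higher and 11 lower, with a median of -0.14, a sign that turns on rescaling (12 and 8, median 0.10, where all genes have 0.20). For genotype at 600 mosmol/kg 14 of the 20 had the lower value in the knockout, and the median was -0.50 (13 and -0.38 after rescaling). Over all genes 6817 of 13063 were lower in that comparison, with a median of -0.02 (0.11 after rescaling). Past 2-fold were 1 higher (Crim1) with osmolality in Scr cells, 1 higher (Rbms3) in Nfat5-KO cells, 1 lower (Rbms3) for genotype at 300, and 1 higher (Axl) and 2 lower (Cyr61 and Tgfb2) for genotype at 600 mosmol/kg. With osmolality that is 5% of the 20 higher, beside 4.81% of all genes in Scr and 6.25% in Nfat5-KO cells. For genotype at 300 mosmol/kg it is 5% lower, beside 2.44% of all genes. For genotype at 600 mosmol/kg it is 5% higher and 10% lower, beside 3.76% and 3.68% of all genes.

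Ccn1, listed as Cyr61, a matricellular protein often used to read YAP activity, was at 23.1 FPKM in Scr_300, 38.4 in Scr_600, 12.2 in Nfat5-KO_300 and 9.85 in Nfat5-KO_600. Both Nfat5-KO values were below both Scr values, and at 600 mosmol/kg Cyr61 was lower by 1.95 on the log2 scale (log2 ratio -1.95). Ccn2, listed as Ctgf, its close relative, was at 37.9, 68.1, 29.3 and 38.2 FPKM in the same order, with no ratio past 2-fold. Crim1, a membrane protein that binds growth factors, rose in Scr cells from 10.6 to 22.4 FPKM (1.08) and was at 14.9 and 27.4 FPKM in Nfat5-KO cells (0.88). Rbms3, an RNA-binding protein, was at 1.68 and 2.95 FPKM in Scr and at 0.599 and 1.90 in Nfat5-KO cells. It rose with osmolality in Nfat5-KO cells (1.52) and was lower in them at 300 mosmol/kg (-1.35), both under 2-fold with a pseudocount of 1 FPKM. Tgfb2, a secreted growth factor, was at 0.922 FPKM in Scr_600 and lower in Nfat5-KO_600, at 0.329 FPKM (-1.25, but -0.53 with a pseudocount of 1 FPKM). Dock5, a guanine nucleotide exchange factor for Rac, was at 2.66 and 3.94 FPKM in Scr and at 4.01 and 2.81 in Nfat5-KO cells.

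All 20 listed genes of the upstream Hippo pathway and the TEADs could be compared, and 1 of them, or 5%, fell 2-fold in Nfat5-KO cells, close to the 4.11% of all genes. This was Tead4, a DNA-binding partner of YAP, which fell from 11.8 to 5.24 FPKM (log2 ratio -1.15, but -0.91 after rescaling) and was at 6.85 and 7.73 FPKM in Scr cells. Yap1 was at 14.8 and 15.3 FPKM in Scr and at 13.7 and 13.9 in Nfat5-KO cells. Wwtr1, which encodes the YAP paralogue TAZ, was at 28.4 and 25.1 FPKM in Scr and at 31.4 and 41.5 in Nfat5-KO cells. These are transcript levels and do not read where YAP is in the cell.

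Of 27 SRF-MRTF targets 20 could be compared, Tpm1 and Vcl included. In Scr cells 9 were higher and 11 lower at 600 mosmol/kg (median log2 ratio -0.04; 13 and 7, median 0.09, after rescaling). In Nfat5-KO cells 4 were higher and 16 lower (median -0.37, or 6 and 14 with a median of -0.13 after rescaling). Over all genes 5871 of 12929 were higher in Scr and 6862 of 12982 lower in Nfat5-KO cells. Their median was -0.04 in both genotypes (0.09 in Scr and 0.20 in Nfat5-KO cells after rescaling). Past 2-fold in Scr cells were 10% of the 20 higher and 5% lower, beside 4.81% and 2.86% of all genes. In Nfat5-KO cells 10% were higher and 10% lower, beside 6.25% and 4.11%. Mylk, the myosin light chain kinase, rose with osmolality in both genotypes, from 1.61 to 4.07 FPKM in Scr cells (1.28, but 0.96 with a pseudocount of 1 FPKM) and from 1.37 to 6.09 in Nfat5-KO cells (2.07). Pdlim5, a PDZ and LIM protein of actin bundles, also rose in both, from 5.26 to 11.0 FPKM (1.05, but 0.94 with a pseudocount of 1 FPKM) and from 6.29 to 14.3 (1.18). Fhl2, a LIM-only cofactor, was at 25.9 and 27.5 FPKM in Scr cells and fell in Nfat5-KO cells from 20.9 to 8.67 (-1.26).

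SRF and its cofactors differed from one another. Srf was at 12.8 and 13.5 FPKM in Scr and at 16.7 and 11.5 in Nfat5-KO cells. Mrtfa, listed as Mkl1, the cofactor that binds actin monomers, rose from 11.1 to 29.9 FPKM in Scr cells (log2 ratio 1.42) and from 6.93 to 21.1 in Nfat5-KO cells (1.60). Mrtfb, listed as Mkl2, was at 8.93 and 15.0 FPKM in Scr and at 6.54 and 10.9 in Nfat5-KO cells, under 2-fold in both. Myocd, the muscle cofactor, was listed at 0 in every group.

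Of 16 focal adhesion genes 15 could be compared, with Vcl among them, and 1 rose 2-fold with osmolality, or 6.67% beside 4.81% of all genes in Scr and 6.25% in Nfat5-KO cells. Tns1, a tensin that binds actin and integrin tails, rose with osmolality from 1.76 to 5.92 FPKM in Scr cells (log2 ratio 1.70) and from 3.69 to 13.3 in Nfat5-KO cells (1.83). It was also higher in Nfat5-KO than in Scr cells at 300 (1.03, but 0.77 with a pseudocount of 1 FPKM) and at 600 mosmol/kg (1.16). The median log2 ratio of the 15 with osmolality was 0.13 in Scr and -0.10 in Nfat5-KO cells, and the latter is 0.14 after rescaling.

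**Figure D5:**
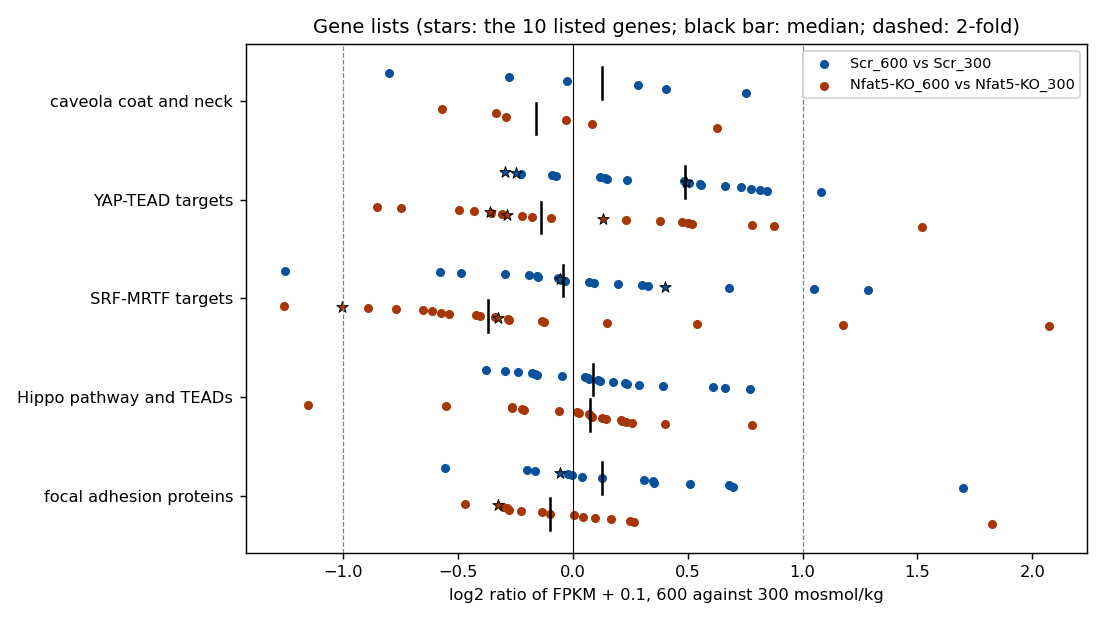
Log2 ratio of FPKM + 0.1 at 600 against 300 mosmol/kg (horizontal axis) for the compared genes of 5 lists (vertical axis), blue for Scr and brown for Nfat5-KO cells; points are spread vertically only to keep them apart, stars are genes of the set of 10, black bars are list medians and dashed lines mark 2-fold. The bar of the YAP-TEAD targets is at 0.49 in Scr and -0.14 in Nfat5-KO cells, and that of the SRF-MRTF targets at -0.04 and -0.37.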

How the data were processed

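RNA-seq was made from mpkCCD cells in 4 groups (12 libraries). The authors deposited FPKM values, 1 column per group; how libraries were combined is not given in the sources used here. The study's methods and the submitters' processing notes name HISAT2, HTSeq and mm10, and do not state strand-aware counting. All 4 value columns were matched to groups by name. Of 54839 lines, 2436 had no value, 311 exact duplicates were dropped and 37 symbols with several differing lines were left out, which gave 52015 genes. Depth per library is unknown, so neither counting intervals nor limits of detection are given.

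Ratios were log2((FPKM + 0.1)/(FPKM + 0.1)) for genes with at least 0.5 FPKM in a compared group, called at 2-fold; with 1 value per group no test was possible, and the limma fit planned for library values was not used. The scripts were tested on simulated data with large known changes in well-expressed genes. That check does not cover low genes, ratios near 2-fold or the spread between libraries. The 10 genes and all lists were chosen with earlier results of these data known. Named genes were the 10, the caveola and family lists, genes of the other lists with at least 1 FPKM and 2-fold in a comparison (plus Yap1, Wwtr1, Srf, Mrtfa, Mrtfb, Ccn1 and Ccn2), expressed genes within 1 Mb of Cav1, the 5 genes nearest to Cav1 in profile, and Nfat5; likeness was ranked among genes averaging at least 1 FPKM. Alternatives were other pseudocounts, filters, scalings and a 1.5-fold threshold. Positions come from GENCODE M21 and promoters from RefSeq (GRCm38.p6). Python 3.11.15, numpy 2.4.6, pandas 2.3.3 and matplotlib 3.10.9 were used.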

Additional observations from a re-analysis of the deposited data

Results flagged for a closer look

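Of 89 named or listed genes that reached 1 FPKM, 7 had osmolality ratios of opposite sign in the genotypes that differed at least 2-fold. That is 7.87% of them, beside 2.90% of the 11921 genes of the table that reached 1 FPKM. A difference of 2-fold whatever the signs was seen in the same 7. For that, 3.88% higher and 3.16% lower were counted over the 13414 genes that reached 0.5 FPKM, a lower floor than for the 89. The lists were drawn up with results known, so nothing is read from these shares. None of these differences was tested, since each group has 1 value. For Tpm1 the log2 ratio was 0.40 in Scr and -1.01 in Nfat5-KO cells, a difference of -1.41, and for Tpm2 it was -1.26 and 0.54, a difference of 1.80 the other way. Ehd2 had -0.80 and 0.63, a difference of 1.43. Fhl2 had 0.09 and -1.26, a difference of -1.35, and Tead4 had 0.17 and -1.15, a difference of -1.33. Cyr61 differed by -1.04 (0.73 and -0.31) and Dock5 by -1.05 (0.55 and -0.50). The last 2 differences are under 2-fold with a pseudocount of 1 FPKM or after rescaling.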

How the results depend on the processing

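Each log2 ratio of the 7 expressed genes was read under 7 alternatives, 245 values in all. Of these, 234 kept their sign and their side of the 2-fold line, or of the 1.5-fold line where that was the alternative. The 2 other filters on low values could not change these ratios, so their 35 values each were the same by construction. The 1.5-fold threshold moved only the line. The count of 234 therefore overstates how far the ratios were checked. Cav1 in Nfat5-KO_600 against Scr_600 was just short of 2-fold with a pseudocount of 1 FPKM (0.997), as was Tpm1 with osmolality in Nfat5-KO cells (-0.99; -0.76 after rescaling), so that 1 gene of the set and not 2 was higher in the former and 1 and not 2 lower in the latter. Rescaling each group to the same sum also turned the sign of Vcl in Scr cells (0.07) and of the Ankrd1 difference (0.07). In the following, counts of all genes are given as higher and lower for osmolality in Scr cells, osmolality in Nfat5-KO cells, genotype at 300, genotype at 600 mosmol/kg, and the difference of osmolality ratios. With a pseudocount of 1 FPKM they were 251 and 124, 259 and 230, 48 and 87, 135 and 203, and 139 and 165. With no filter on low values they were 1098 and 737, 1422 higher, 581 and 647, 1086 and 798, and 1258 and 891. With a mean of at least 1 FPKM they were 345 and 209, 453 higher, 117 and 163, 246 and 277, and 235 and 228. At 1.5-fold they were 1345 and 1165, 1836 and 1792, 670 and 789, 1285 and 1233, and 1272 and 1174; genes of the set were then 1 higher for genotype at 300, 2 lower for genotype at 600 mosmol/kg, and 1 higher and 2 lower for the difference. After rescaling, osmolality in Nfat5-KO cells gave 1318 and 274. Counts not given here stayed within 1.5 times the main ones. No paired analysis was possible because the table holds 1 value per group, and for the same reason no replicate could be left out. Depth is unknown, so genes near 0, such as Myl9, cannot be given a limit of detection.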
